A study of Mus musculus with 2 samples.

Results

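Adipocytes are fat-storing cells. They keep triglyceride in a lipid droplet coated with perilipins, take up fatty acids that lipoprotein lipase frees from circulating lipoproteins, and secrete hormones called adipokines. Around a long bone they occur in fat depots between muscles and under the skin, and inside the bone as marrow adipocytes, and their differentiation is driven by the nuclear receptor PPARγ. The 8 adipocyte genes described here, of the 19465 genes in the files, were chosen by name for these roles: the adipokines *Adipoq*, *Cfd* and *Lep*, the perilipins *Plin1* and *Plin4*, the fatty acid binding protein *Fabp4*, the lipase *Lpl* and the transcription factor *Pparg*. The rule that chose them uses no level measured here, although they were chosen with earlier results of these data known, and each of the 8 symbols belonged to a single gene in the files.

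Transcripts were counted in place with the Visium platform on formalin-fixed, paraffin-embedded femurs: probe pairs that bind a transcript in a thin longitudinal section are caught by the spot of the slide beneath, and each is counted once as a unique molecular identifier (UMI). Both femurs came from female bone cell reporter (BCR) mice, which carry fluorescent reporters at *Ibsp* and *Acp5*, received a femoral osteotomy under an external fixator at 12 weeks of age and were euthanized at 17 weeks of age. The Loaded mouse received individualized cyclic mechanical loading through the fixator after the defect had bridged, and the Control mouse received sham-loading. There was 1 section of 1 mouse per group, so section, mouse, the part of the leg that was cut and the condition cannot be told apart, no test was run, and every interval is a 95% interval that covers counting error only.

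Each spot was placed in 1 of 3 regions: bone spots, which are those the study marked between the middle fixator pins; enclosed spots, which lie inside the convex hull of the bone spots; and outside spots, which are all others. After the study's filter on spots, the Control section held 131 bone, 217 enclosed and 1550 outside spots and the Loaded section 146, 215 and 1070. Before the filter the sections held 9002147 and 4910716 UMIs, and median depths per spot in the regions ranged from 1951 to 3478 UMIs. Levels are given as normalized counts, the UMIs of a gene summed over a region divided by the summed scran size factors of its spots, so that 1 is 1 UMI in a spot of average size. A spot can hold several cells of different types, so fewer cells of a type and less RNA per cell cannot be told apart. The assay uses gene-specific probes, so levels were not compared between genes. The 557 grid positions under tissue in both sections share barcodes, which mark a position on the slide and not a cell.

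The regions were checked against marker lists. Erythroid genes took 11.4% of UMIs in the Control and 11.6% in the Loaded enclosed spots, against 2.47% and 3.05% in the bone spots. Osteoblast and osteocyte genes took 2.51% of UMIs in Loaded bone spots and 0.831% in Control bone spots. The outside region was not soft tissue alone: *Bglap*, which encodes the bone matrix protein osteocalcin, had 1362 UMIs in outside and 126 in bone spots of the Control section. In that section its normalized count was 0.827 outside and 0.726 in bone, and 3 of 7 osteoblast and osteocyte genes, *Col1a1* among them, were at least 2-fold higher in bone than outside, against 7 of 7 in the Loaded section. Of all genes compared, 5.71% in the Control and 6.09% in the Loaded section passed the same limit. Skeletal muscle genes took between 5.39% (Loaded enclosed) and 32.5% (Control outside) of UMIs.

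The sequences just upstream of *Adipoq*, *Cfd* and *Plin1* are shown because these 3 genes lay together in the sections, as described below, and are called the adipocyte trio. A level or correlation of the trio is that of the summed UMIs, of which *Cfd* has the most (5994 in the Control section, beside 862 of *Adipoq* and 461 of *Plin1*, and 1638, 195 and 159 in the Loaded section), so that the trio and *Cfd* alone correlated across spots at 0.96 and 0.94. The genes lie on different chromosomes, *Adipoq* at chr16:23146536-23158028 on the plus strand, *Cfd* at chr10:79890853-79892655 on the plus strand and *Plin1* at chr7:79720218-79732903 on the minus strand (GRCm38, GENCODE M21 annotation). The 250 bases before the RefSeq start (GRCm38.p6), 5′ to 3′ on the strand of the gene, span chr16:23146286-23146535, chr10:79890603-79890852 and chr7:79732777-79733026. The RefSeq start of *Plin1* lies inside the gene as GENCODE gives it, so the end of its window is within those gene bounds. Capitals mark matches, on either strand, to any of 3 short motifs: the CCAAT box, the nuclear receptor site AGGTCA, of which PPARγ can bind a tandem pair, and the TATA box, searched as TATAAA.
Adipoq: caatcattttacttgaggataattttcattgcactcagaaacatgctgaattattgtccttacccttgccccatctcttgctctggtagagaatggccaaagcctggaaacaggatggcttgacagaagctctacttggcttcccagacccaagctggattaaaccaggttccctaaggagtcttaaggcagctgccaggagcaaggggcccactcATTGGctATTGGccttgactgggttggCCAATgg
Cfd: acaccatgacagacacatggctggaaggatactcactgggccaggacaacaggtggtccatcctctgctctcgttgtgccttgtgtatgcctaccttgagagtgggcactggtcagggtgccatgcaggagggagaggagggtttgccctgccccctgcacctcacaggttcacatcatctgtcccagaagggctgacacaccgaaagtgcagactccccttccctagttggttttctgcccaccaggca
Plin1: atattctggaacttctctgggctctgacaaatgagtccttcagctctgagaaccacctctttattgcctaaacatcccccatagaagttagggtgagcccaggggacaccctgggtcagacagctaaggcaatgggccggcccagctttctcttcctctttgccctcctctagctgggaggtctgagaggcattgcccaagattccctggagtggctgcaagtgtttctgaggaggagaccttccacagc
Only *Adipoq* held a match, 3 to CCAAT, in these windows. Of 32851 RefSeq windows of this length, 33.8% held CCAAT, 14.0% AGGTCA and 12.4% TATAAA, with matches on both strands counted and none of the 3 motifs containing another. Of the 8 adipocyte genes, 6 had an entry, and the windows of *Lep*, *Plin4* and *Pparg* are not printed.

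*Adipoq* encodes adiponectin, the most abundant adipokine in plasma. In the Control section it had 14 UMIs in bone, 10 in enclosed and 838 in outside spots, which are normalized counts of 0.0807, 0.0706 and 0.509. The Loaded section gave 17, 12 and 166 UMIs, or normalized counts of 0.132, 0.0737 and 0.154. The Control outside level was thus the high one, and the Loaded outside level differed from the Loaded bone level by less than the counting interval. *Cfd* encodes adipsin, a serine protease of the alternative complement pathway that adipocytes secrete. Its normalized counts were 0.254, 0.247 and 3.59 in bone, enclosed and outside spots of the Control section (44, 35 and 5915 UMIs). They were 0.573, 0.645 and 1.36 in the Loaded section (74, 105 and 1459 UMIs). Outside was the highest region in both sections, and both inner regions were higher in the Loaded section. *Lep* encodes leptin, the satiety hormone. It had 24 UMIs in the whole Control section, 22 of them outside, and 8 in the Loaded section, too few to order the regions.

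*Plin1* encodes perilipin 1, which coats the large droplet of adipocytes. It had 2 UMIs in bone, 2 in enclosed and 457 in outside spots of the Control section (normalized counts 0.0115, 0.0141 and 0.278). The Loaded section gave 10, 15 and 134 UMIs (0.0775, 0.0921 and 0.125). Like *Cfd*, *Plin1* was highest outside in the Control section and was higher in the enclosed and bone spots of the Loaded section than of the Control section. *Plin4* encodes perilipin 4, a droplet protein that skeletal muscle also makes. Its normalized counts were 0.115, 0.0988 and 0.207 in the Control section (20, 14 and 341 UMIs) and 0.0465, 0.0491 and 0.0884 in the Loaded section (6, 8 and 95 UMIs). *Plin4* was lower in the Loaded section in each region, with overlapping intervals in bone and enclosed spots.

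*Fabp4* encodes the adipocyte fatty acid binding protein, which capillary endothelium also makes. Its normalized counts were 0.703, 0.896 and 3.10 in the Control section (122, 127 and 5104 UMIs) and 0.782, 1.05 and 1.44 in the Loaded section (101, 171 and 1547 UMIs). *Lpl* encodes lipoprotein lipase, which muscle makes as well as fat. Its normalized counts were 0.680, 0.431 and 1.47 in the Control section (118, 61 and 2420 UMIs) and 0.519, 0.485 and 1.85 in the Loaded section (67, 79 and 1989 UMIs). *Lpl* alone of the 8 genes had a higher outside level in the Loaded section with an interval that did not meet the Control interval. *Pparg* had 34 UMIs in the Control and 25 in the Loaded section, with normalized counts between 0.00775 and 0.0205 and intervals that overlapped between regions and sections.

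**Figure D1:**
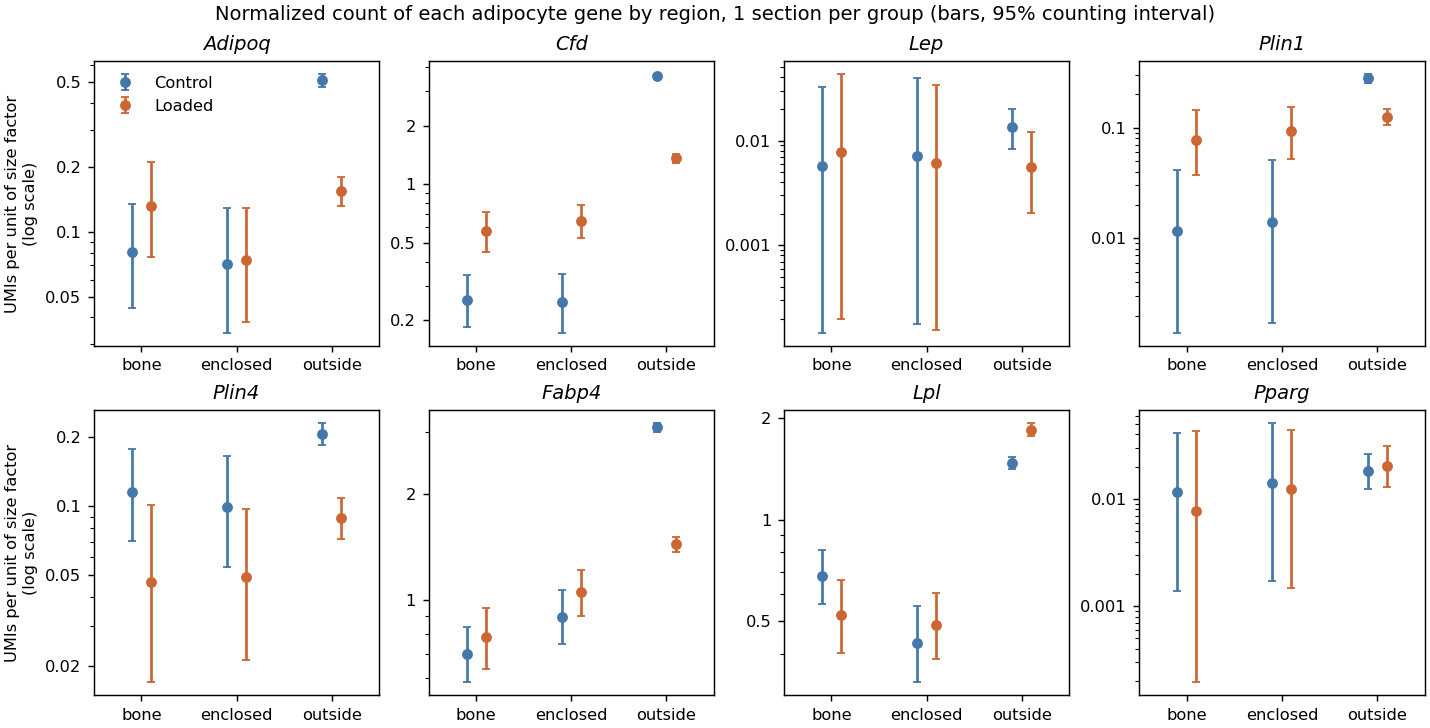
Normalized count of each of the 8 adipocyte genes on a log axis by region, Control in blue and Loaded in orange, with the counting interval as a bar. *Cfd*, *Adipoq*, *Plin1* and *Fabp4* have their highest point in the Control outside spots (3.59 for *Cfd*), *Lpl* in the Loaded outside spots (1.85), and the bars of *Lep* and *Pparg* overlap throughout.

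The contrast of outside with bone spots asks where in the section the adipocyte genes were detected. A gene is called higher or lower here where it had at least 10 UMIs over both regions, differed at least 2-fold and had an interval that left out 0. In the Control section 5 of 8 adipocyte genes were called higher outside, against 7.11% of all genes compared, and none was called lower (5.71% of all genes). *Plin1* had a log2 ratio of 4.59 (2.73 to 7.64), *Cfd* of 3.82 (3.40 to 4.29), *Adipoq* of 2.66 (1.90 to 3.53), *Fabp4* of 2.14 (1.88 to 2.41) and *Lpl* of 1.11 (0.85 to 1.39). *Plin4* stood at 0.85 (0.20 to 1.58), *Lep* at 1.21 and *Pparg* at 0.66. The median over the 8 genes was 1.68, beside 0.02 over 13930 genes compared.

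Of the 7 adipocyte genes compared in the Loaded section 2 were called higher outside, against 5.31% of genes, and none lower (6.09%). These were *Lpl* with a log2 ratio of 1.83 (1.48 to 2.21) and *Cfd* with 1.24 (0.91 to 1.60). *Fabp4* stood at 0.88 (0.59 to 1.18), *Plin1* at 0.69 (-0.24 to 1.78) and *Adipoq* at 0.23 (-0.49 to 1.04). The median over the 7 genes was 0.93, beside -0.13 over all genes compared. For *Plin1*, *Cfd*, *Adipoq* and *Fabp4* the Control interval lay wholly above the Loaded interval, and for *Lpl* it lay wholly below. Each region was also divided into 4 blocks, by side of the shaft axis and by end, and each block was left out in turn. *Lpl* was no longer called without 1 outside block, at 0.78 in the Control section (side 1, end 2) and at 0.75 in the Loaded section (side 2, end 2). *Cfd* stood at -0.0588 in the Loaded section without the outside block at side 1 and end 1. Without the Control outside block at side 1 and end 1, the Control ratios were -2.36 for *Adipoq*, -1.19 for *Cfd* and 0.01 for *Fabp4*, so that *Adipoq* and *Cfd* were lower outside than in bone. *Plin1* had 450 of its 457 outside UMIs in that block, fell under 10 UMIs without it and was not compared. Against outside spots that lay beside the bone region along the shaft, 4 genes were called higher in the Control section (5.65% of genes, and 4.49% lower): *Plin1* at 3.54, *Cfd* at 3.01, *Fabp4* at 1.62 and *Adipoq* at 1.58. There, 4 genes were also called higher in the Loaded section (4.53% of genes, and 6.86% lower): *Cfd* at 1.70, *Lpl* at 1.48, *Plin1* at 1.25 and *Fabp4* at 1.23.

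Of the marrow lists, erythroid and granulocyte genes took their highest share of UMIs in the enclosed spots. Marrow reticular genes did not stand out there: they took 0.0334% in bone and 0.0329% in enclosed spots of the Control section. The Loaded shares were 0.0374% and 0.0389%. None of the adipocyte genes compared, 5 in the Control and 6 in the Loaded section, was called higher or lower in enclosed than in bone spots. Of all genes, 11.3% were called higher and 2.87% lower in the Control enclosed spots, and 8.95% and 6.86% in the Loaded section. The intervals that left out 0 were those of *Lpl* in the Control section (-0.66, -1.13 to -0.20) and of *Fabp4* in the Loaded section (0.42, 0.06 to 0.79). The log2 ratios of *Cfd* were -0.04 (-0.72 to 0.64) and 0.17 (-0.27 to 0.62). In the same contrast, 9 of 10 granulocyte genes were called higher in the enclosed spots of each section.

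Adipocyte spots were defined as spots with a UMI of at least 3 of the 4 genes *Adipoq*, *Cfd*, *Plin1* and *Plin4*. *Plin4*, which muscle also makes, was lower in the Loaded section in each region, and its part in the shares below was not tested. After every spot was thinned to 1000 UMIs, 40 of 1299 Control outside spots qualified (3.08%, 2.21 to 4.17) and 6 of 1013 Loaded outside spots (0.592%, 0.218 to 1.28). No bone spot qualified in either section (0 of 131 each, which allows a share of up to 2.29%), and no enclosed spot did (0 of 212 Control spots, which allows up to 1.42%, and 0 of 211 Loaded spots, which allows up to 1.42%). Too shallow to be thinned were 251 Control and 57 Loaded outside spots, 0 and 15 bone spots and 5 and 4 enclosed spots. The limits overlap the share of the Loaded outside spots, so a like share within bone or marrow was not detectable at this depth. Without thinning, 109 of 1898 Control spots (5.74%) and 39 of 1431 Loaded spots (2.73%) qualified, 107 and 36 of them outside.

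The shares of spots with a UMI of a single gene are set beside those of muscle spots, the outside spots with at least 10% of UMIs from skeletal muscle genes. These are no measure of background: adipocyte spots occurred among them, muscle makes *Lpl* and *Plin4*, and 72 of 131 Control and 69 of 146 Loaded bone spots passed the same muscle share. After thinning, *Cfd* was seen in 13.0% of Control bone spots, 8.02% of enclosed spots and 20.6% of muscle spots, from median depths of 3478, 1956 and 5935 UMIs. The Loaded shares were 14.5%, 19.0% and 20.6%, from median depths of 2769, 2595 and 3597 UMIs. For 0 of 8 genes in either section did the share of bone spots lie above that of muscle spots beyond the intervals. Thinned shares were computed for these 8 genes only, so no share over all genes stands beside that count, and whether it is unusual cannot be said. How much of the detection in bone spots is background was not tested. Unthinned, the largest number of *Cfd* UMIs in a spot was 341 in the Control and 93 in the Loaded outside spots, and 5 and 4 in bone spots.

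The outside signal was patchy. The 10 richest of 1898 Control spots held 36.6% of *Cfd*, 34.7% of *Adipoq*, 37.3% of *Plin1* and 28.3% of *Fabp4* UMIs, but 8.43% of *Lpl* and 9.33% of *Plin4* UMIs. The 10 richest of 1431 Loaded spots held 25.1%, 25.1%, 29.6%, 14.0%, 9.93% and 17.4% in the same order. Unthinned adipocyte spots lay side by side: 79.8% of them in the Control section touched another adipocyte spot, while 11.5% of the other spots touched an adipocyte spot, and the Loaded values were 69.2% and 8.62%. They formed 32 patches in the Control section, 22 of them a single spot, and 19 in the Loaded section, 12 of them a single spot.

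The largest Control patch had 29 spots, lay 1058 to 2287 μm from the nearest bone spot and held 32.5% of the UMIs of the trio in the section. Skeletal muscle genes took a median of 1.81% of UMIs in its spots. The next had 19 spots at 1808 to 2464 μm with 23.4% of the trio and a median muscle share of 34.7%. The third had 15 spots at 100 to 520 μm, 9.80% of the trio and a median muscle share of 30.4%. The largest Loaded patch had 15 spots at 100 to 346 μm from bone, 26.8% of the trio and a median muscle share of 14.2%. A patch of 15 spots within 520 μm of bone was thus found in each section, and the Control section also held large patches beyond 1000 μm. Median depths were 4279, 8835 and 3302 UMIs in these Control patches, in the order given, beside 2375 over all Control outside spots. In the Loaded patch the median depth was 3173 UMIs, beside 2675.5 over all Loaded outside spots. Patches were made from unthinned spots, and the part of depth in them was not tested. The largest Control patch, 29 of 1898 spots, held 6.40% of *Plin4* and 6.58% of *Lpl* UMIs, beside 36.7% of *Plin1* and 31.6% of *Cfd*. Patches are built from spots chosen by *Adipoq*, *Cfd*, *Plin1* and *Plin4*, so high shares of the trio in them follow in part from that choice. *Lpl* and *Fabp4* were not used to choose spots, and *Fabp4* had 25.3% of its UMIs in this patch.

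**Figure D2:**
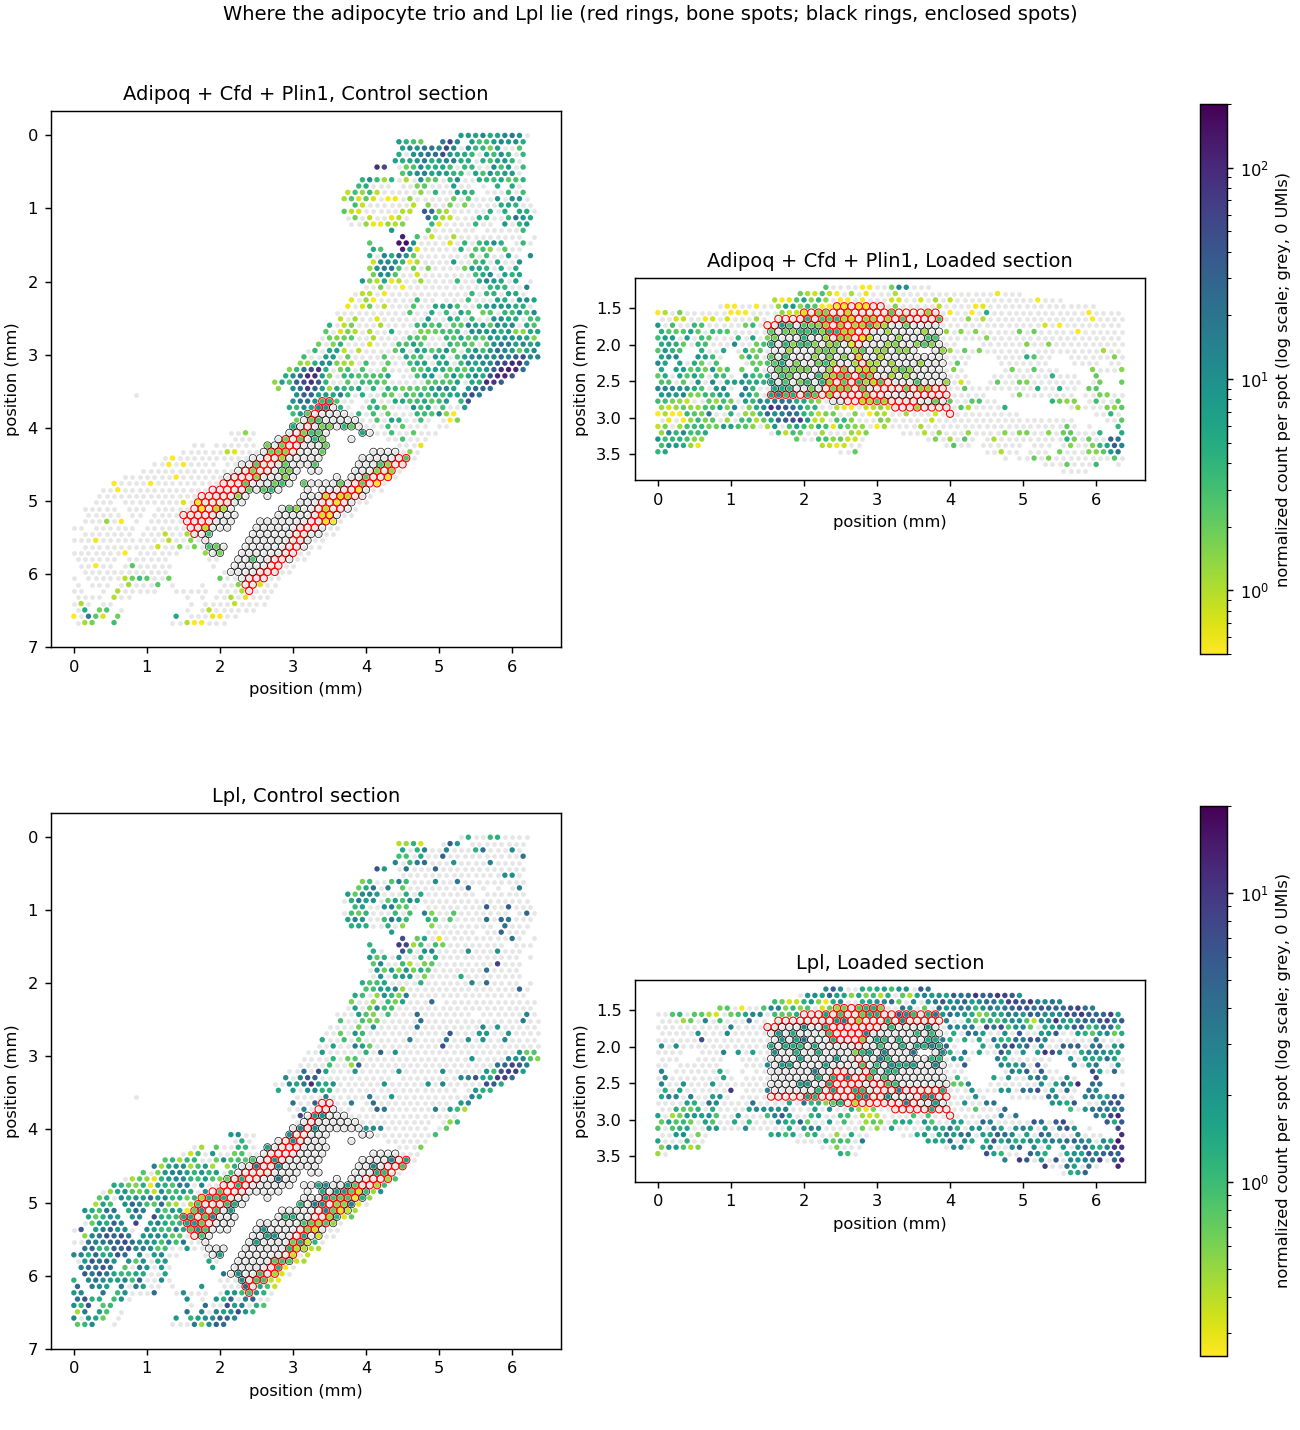
Spots of both sections at their position in mm, coloured on a log scale by the normalized count of the trio (top) and of *Lpl* (bottom), with bone spots ringed in red and enclosed spots in black. The trio is concentrated in patches outside the rings, the largest of 29 spots on the right edge of the Control section, and *Lpl* is highest beyond end 2 of each section, at the lower left of the Control and the right of the Loaded section.

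The Control section reached further from the bone region than the Loaded section, to 4590 against 2506 μm, so the outside spots were also split along the shaft axis into those beyond end 1, beside the bone region and beyond end 2. The ends are named by position on the grid and are not matched between the sections. Beyond end 1 of the Control section lay 937 spots, 60.5% of the outside spots, with 86.8% of the *Adipoq*, 84.4% of the *Cfd*, 86.7% of the *Plin1* and 74.5% of the *Fabp4* UMIs found outside. The normalized count of the trio in the Control section was 9.34 there, 2.42 beside the bone region and 0.177 beyond end 2. The Loaded values were 2.02, 2.25 and 0.544. Median depths per spot in these parts were 1491, 3924 and 10374 UMIs in the Control section. In the Loaded section they were 2180.5, 3502.5 and 2325.5 UMIs, and the part of depth in the levels along the shaft was not tested. By distance, the log2 ratio of the trio in outside spots over 1000 μm from bone to those up to 300 μm was 2.44 (2.28 to 2.60) in the Control and -0.74 (-0.91 to -0.58) in the Loaded section.

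Beside the bone region the levels of the trio lay closer together. *Cfd* had 839 UMIs over 325 Control spots and 900 UMIs over 398 Loaded spots (normalized counts 2.05 and 1.87), *Adipoq* 99 and 95 UMIs (0.241 and 0.197) and *Plin1* 55 and 89 UMIs (0.134 and 0.185). Of these UMIs, 1 patch of 15 spots per section held 611 and 444 of *Cfd*, 68 and 44 of *Adipoq* and 38 and 45 of *Plin1*. Those patches also enter the calls beside the bone region given above and below. Beyond end 2, where the trio was lowest in each section, *Lpl* was highest. Its normalized count in the Control section was 1.03 beyond end 1, 1.08 beside the bone and 2.24 beyond end 2, and in the Loaded section 0.755, 1.45 and 3.13. *Plin4* was at 0.220, 0.188 and 0.206 in the Control section and at 0.0629, 0.0830 and 0.113 in the Loaded section, with intervals that overlapped within each section. Skeletal muscle genes took 27.7%, 31.6% and 37.3% of UMIs in these parts of the Control section and 22.4%, 20.3% and 21.4% in the Loaded section, and their part in the levels was not tested.

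**Figure D3:**
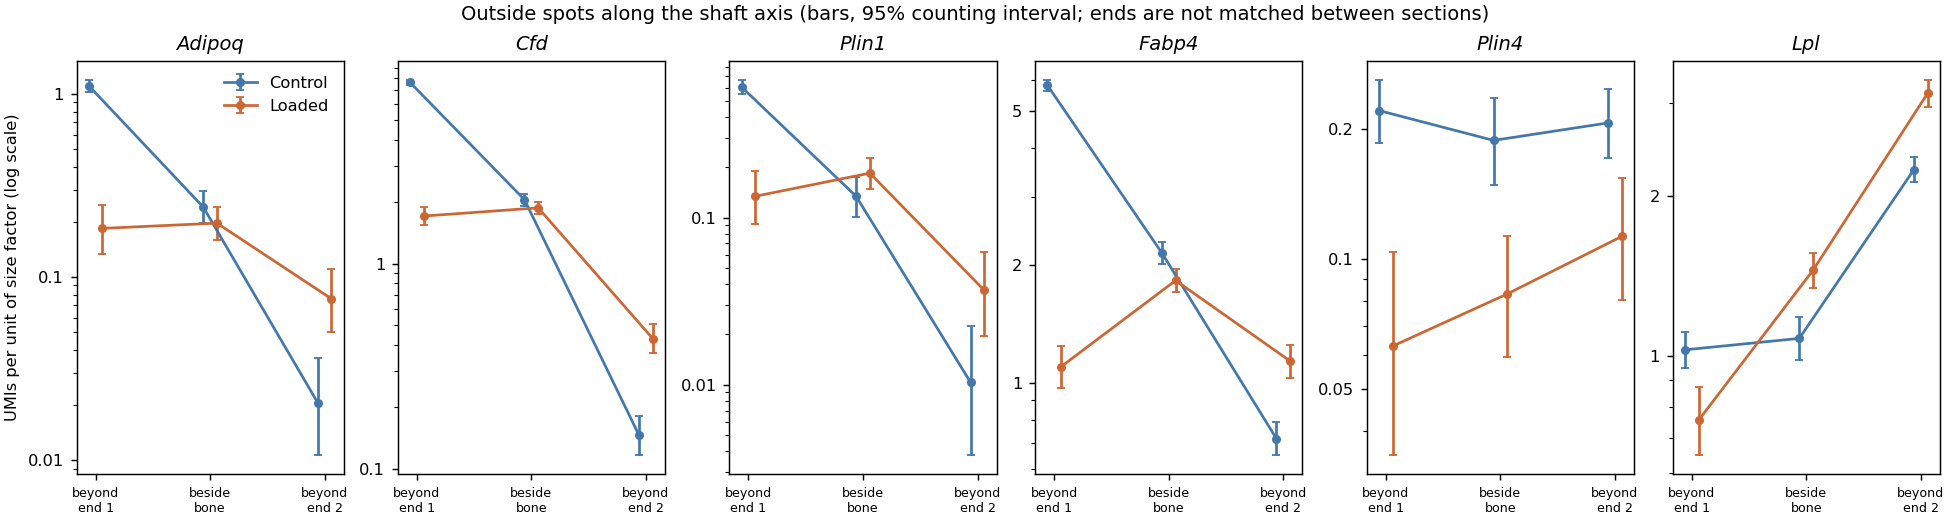
Normalized counts of 6 adipocyte genes on log axes in outside spots beyond end 1, beside the bone region and beyond end 2, with counting intervals, Control in blue and Loaded in orange. *Adipoq*, *Cfd*, *Plin1* and *Fabp4* are lower at each step from end 1 to end 2 in the Control section and lie near the Loaded values beside the bone, while *Lpl* is highest beyond end 2 in both sections (2.24 and 3.13).

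The comparison of Loaded with Control asks whether the adipocyte genes differed between the sections. In outside spots 5 of 8 genes were called lower in the Loaded section, against 3.86% of genes, and none higher (3.11%). *Adipoq* had a log2 ratio of -1.72 (-1.97 to -1.48), *Cfd* of -1.40 (-1.49 to -1.32), *Plin4* of -1.23 (-1.57 to -0.90), *Plin1* of -1.16 (-1.44 to -0.87) and *Fabp4* of -1.11 (-1.19 to -1.02). *Lpl* stood at 0.33 (0.25 to 0.42), *Pparg* at 0.17 (-0.70 to 1.01) and *Lep* at -1.26 (-2.85 to 0.09). The median was -1.19, beside 0.00 over 15218 genes.

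With outside spots limited to those beside the bone region, 1 of 7 genes compared was called lower, *Plin4* at -1.18 (-1.77 to -0.61), against 3.73% of genes, and none higher (3.89%). *Cfd* was then at -0.13 (-0.27 to 0.01), *Adipoq* at -0.29 (-0.71 to 0.13), *Fabp4* at -0.23 (-0.37 to -0.10) and *Plin1* at 0.46 (-0.04 to 0.97). *Plin4* was thus about as far below 0 as over all outside spots, and *Adipoq*, *Cfd* and *Fabp4* were nearer to 0. *Lpl* stood at 0.43 (0.25 to 0.60) and *Pparg* at 0.67 (-0.66 to 2.12), no nearer to 0 than over all outside spots. The Control outside block at side 1 and end 1 held 71.1% of the outside spots but 98.3% of *Adipoq* and of *Cfd* UMIs and 98.5% of *Plin1* UMIs. Without it, *Adipoq* was at 3.29, *Cfd* at 3.61, *Plin1* at 3.98 and *Fabp4* at 1.02, all higher in the Loaded section. Without the Loaded outside block at side 2 and end 2, *Cfd* at -0.74, *Plin1* at -0.53 and *Fabp4* at -0.93 were no longer called. That block held 74.0% of the Loaded outside UMIs of *Lpl*, which changed sign to -0.75 without it.

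**Figure D4:**
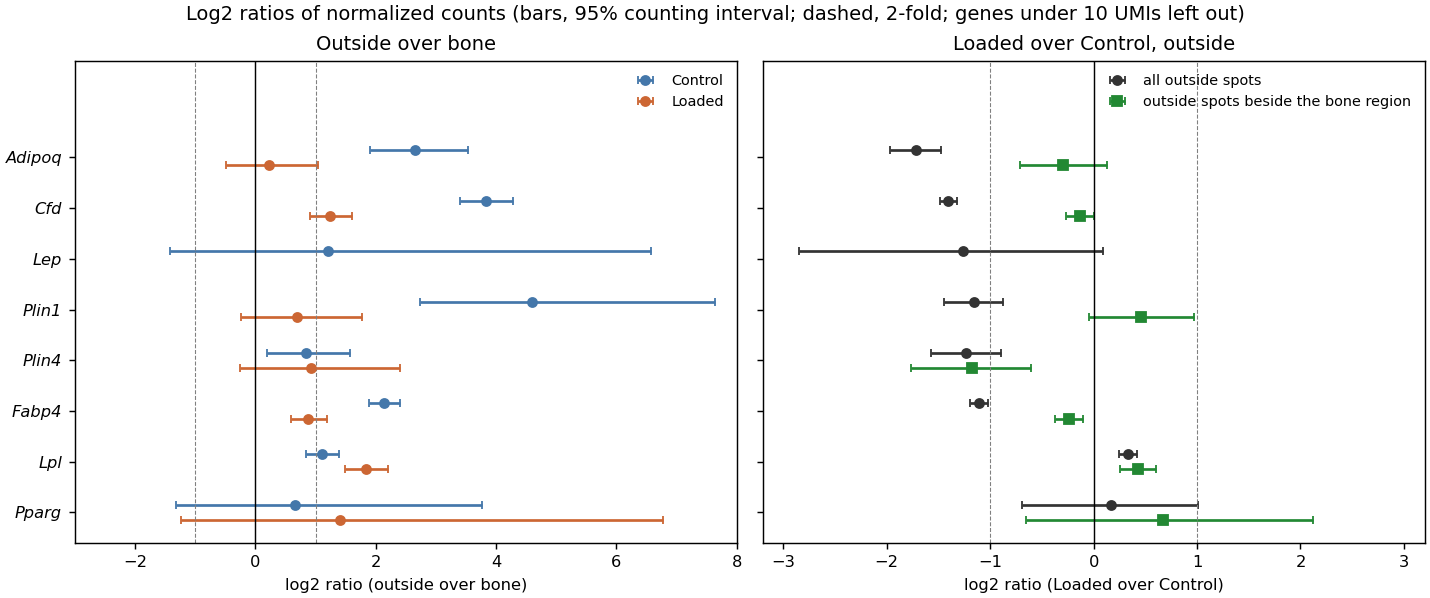
Log2 ratios of the adipocyte genes with counting intervals, outside over bone in both sections (left) and Loaded over Control in outside spots (right), where black circles are all outside spots and green squares are those beside the bone region. On the right *Adipoq*, *Cfd*, *Plin1* and *Fabp4* sit between -1.72 and -1.11 over all outside spots and between -0.29 and 0.46 beside the bone, and *Plin4* is at -1.23 and -1.18. *Lep* is shown only where it reached 10 UMIs.

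In bone spots 2 of 6 genes compared were called higher in the Loaded section, against 8.49% of genes, and none lower (4.69%). They were *Cfd* at 1.18 (0.62 to 1.75) and *Plin1* at 2.75 (0.52 to 5.98, from 10 and 2 UMIs). In enclosed spots the same 2 of 6 were called higher, *Cfd* at 1.38 (0.82 to 1.98) and *Plin1* at 2.71 (0.60 to 5.88, from 15 and 2 UMIs), against 3.96% of genes, and none lower (6.52%). *Fabp4*, with the most UMIs in these regions, stood at 0.15 (-0.24 to 0.55) in bone and 0.23 (-0.11 to 0.57) in enclosed spots. *Plin4* stood at -1.31 (-2.92 to 0.06) and -1.01 (-2.47 to 0.35). In the same comparison of bone spots, 6 of 7 osteoblast and osteocyte genes and 8 of 10 granulocyte genes were called higher and 12 of 20 skeletal muscle genes lower. *Cfd* in bone was no longer called without a Control block (0.86 without side 1, end 2 and 0.88 without side 2, end 2) or a Loaded block (1.00 without side 1, end 1). *Cfd* in enclosed spots was no longer called without a Loaded block (0.72 without side 1, end 1) or a Control block (0.95 without side 2, end 1). The call of *Plin1* rests on few UMIs: it had under 10 and was not compared without any 1 of 3 Loaded bone blocks or without the Loaded enclosed block at side 1 and end 1, which held 11 of its 15 UMIs. Its interval took in 0 without 1 Control block of each region, at 2.18 without side 1, end 2 of bone and at 2.10 without side 2, end 1 of the enclosed spots. In every comparison the levels of the blocks overlapped between the groups compared for each of the 8 genes. Of all genes, those with every block above and every block below were 2.59% and 0.897% for outside over bone in the Control section, 5.64% and 4.7% in the Loaded section, 3.61% and 1.05% for enclosed over bone in the Control section and 5.42% and 3.91% in the Loaded section. For Loaded over Control they were 3.92% and 1.97% in bone, 3.59% and 3.23% in enclosed and 1.55% and 1.81% in outside spots.

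Across spots, the 8 genes fell into a group that varied together and others that did not. Correlations are Pearson's r of log2(1 + normalized count) over the 1898 Control and 1431 Loaded spots, which share a section and its depth, and are given as a description. *Adipoq*, *Cfd*, *Plin1* and *Fabp4* correlated with each other at 0.45 to 0.59 in the Control section and at 0.20 to 0.36 in the Loaded section. *Plin4* and *Lpl* correlated with these 4 at no more than 0.20 in either section. *Lpl* correlated with the summed skeletal muscle genes at 0.28 in the Control and 0.17 in the Loaded section. In the Control section *Lpl* correlated more strongly with the total UMIs of a spot (0.44) and with summed genes of fatty acid and glucose uptake (0.37). *Lep* and *Pparg* had too few UMIs for a correlation to be read. Of 9445 genes ranked by the lower of their 2 correlations with the summed trio, *Fabp4* came at rank 9 (0.59 and 0.29), *Plin4* at rank 4393 and *Lpl* at rank 8588 (0.05 and -0.10). The genes of the trio are part of that sum and held ranks 1 to 3.

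**Figure D5:**
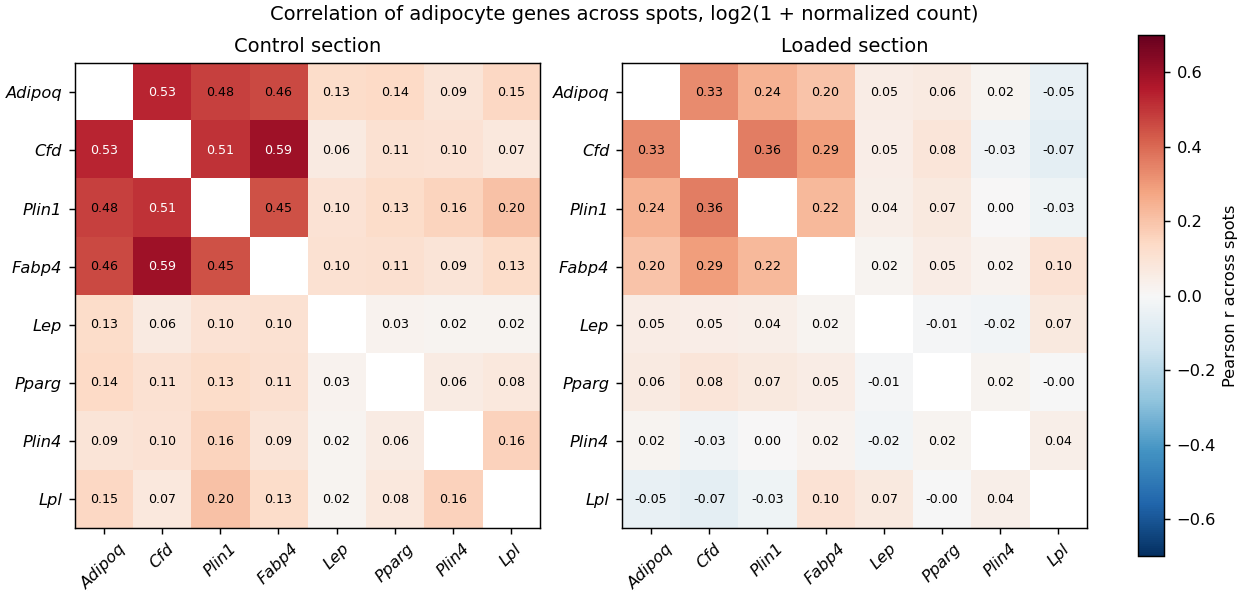
Pearson's r of each pair of adipocyte genes across the spots of the Control (left) and Loaded (right) section. *Adipoq*, *Cfd*, *Plin1* and *Fabp4* form a block at 0.45 to 0.59 in the Control and 0.20 to 0.36 in the Loaded section, and the rows of *Lpl* and *Plin4* stay at or below 0.20.

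The 10 genes outside the list that were most like the trio in both sections were *Scd1* (r of 0.55 in the Control and 0.35 in the Loaded section), *Cyp2e1* (0.49 and 0.34), *Fasn* (0.53 and 0.33), *Thrsp* (0.49 and 0.29), *Cidec* (0.43 and 0.29), *Cyp2f2* (0.49 and 0.26), *Hp* (0.41 and 0.24), *Ifi27l2a* (0.39 and 0.21), *C3* (0.31 and 0.20) and *C4b* (0.24 and 0.18). *Scd1* encodes a stearoyl-CoA desaturase, *Fasn* fatty acid synthase and *Thrsp* a regulator of lipogenesis. *Cidec* encodes a protein that enlarges lipid droplets, and *C3* and *C4b* are complement components, as is adipsin. In a ranking for *Lpl* alone, made after the values were seen, the nearest genes were *Idh2* (0.39 and 0.44), *Fabp3* (0.38 and 0.41), *Tpm2* (0.38 and 0.40), *Ckmt2* (0.42 and 0.36) and *Cox6a2* (0.36 and 0.38). *Fabp3* encodes the heart and muscle fatty acid binding protein, *Ckmt2* a mitochondrial creatine kinase of striated muscle and *Cox6a2* a muscle subunit of cytochrome c oxidase.

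Outside spots were also split by muscle share, at 5%, 10%, 20% and 40%. From the lowest to the highest share, the normalized count of the trio in the Control section was 13.5, 3.60, 14.0, 1.55 and 0.678. In the same order *Lpl* was at 1.08, 0.509, 1.79, 1.88 and 1.27. In the Loaded section the trio was at 0.771, 1.92, 1.72, 1.68 and 0.862, and *Lpl* at 0.927, 1.53, 2.32, 2.04 and 0.953. The trio was thus lowest in the most muscle-rich spots of the Control section, and *Lpl* was at its highest at intermediate muscle shares in both sections.

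Other genes of fat metabolism were read from lists of named pathways, whose counts outside over bone stand beside 7.11% of all genes called higher and 5.71% lower in the Control section and 5.31% and 6.09% in the Loaded section. Of 11 lipid synthesis genes, 7 were called higher outside than in bone in the Control section and 2 in the Loaded section, where 1 was lower. *Fasn* was at 2.99 (2.31 to 3.78) in the Control and 0.25 (-0.32 to 0.86) in the Loaded section, and *Scd1* at 2.54 (2.06 to 3.06) and 0.41 (-0.10 to 0.96). Of 9 lipid droplet and lipolysis genes, 3 were called higher outside in each section. These were *Cidec* (2.95), *Lipe*, the hormone-sensitive lipase (1.21), and *Abhd5* (1.08) in the Control section. The Loaded ones were *Plin5*, a perilipin of oxidative tissue (3.40, from 88 and 1 UMIs), *G0s2* (1.45) and *Pnpla2*, the adipose triglyceride lipase (1.11). The most abundant genes of this list were *Pnpla2*, at 0.67 in the Control section, and *Plin3*, at 0.06 and 0.26. Of 8 genes of fatty acid and glucose uptake, 4 were called higher and 2 lower outside in the Control section and 3 higher and 1 lower in the Loaded section. *Slc2a4*, the insulin-responsive glucose transporter of fat and muscle, was at 1.44 and 1.36, and *Cd36*, a fatty acid transporter, at 0.92 and 1.04.

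Among 6 adipokines and adipokine receptors, 2 were called higher outside in each section and 2 lower in the Loaded section. The adipokine resistin, *Retn*, stood out with 367 UMIs outside against 2 in bone in the Control section (4.27, 2.41 to 7.32) and 42 against 1 in the Loaded section. The most abundant were the adiponectin receptor *Adipor1* (0.88 and 1.17) and *Nampt* (0.61 and 0.81). Of 7 adipogenic transcription factors, none was called in the Control section, and *Klf15* (1.23) and *Ppargc1a* (2.23) were called higher outside in the Loaded section. The most abundant, *Cebpb* and *Cebpd*, were at 0.66 and 0.00 in the Control and 0.90 and 0.00 in the Loaded section. Between sections, 4 of 11 lipid synthesis genes were called lower in Loaded outside spots, *Scd1* at -1.74 (-1.91 to -1.58) and *Fasn* at -1.60 (-1.79 to -1.41) among them, and none higher, beside 3.86% and 3.11% of all genes. Beyond end 1 of the Control section the summed lipid synthesis genes took 0.172% of UMIs. In outside spots beside the bone region they took 0.0605% (0.0570 to 0.0642) in the Control and 0.0671% (0.0632 to 0.0711) in the Loaded section. By share of UMIs the list was thus not lower in the Loaded section there. The calls above rest on normalized counts, and the list was not compared on that scale beside the bone region. Of the 6 brown adipocyte genes 4 had 10 UMIs over the regions. In the Control section 2 of these were called lower outside than in bone (5.71% of all genes) and none higher. In the Loaded section 1 was called higher (5.31%) and none lower. The defining gene, *Ucp1*, had 5 UMIs in Control outside spots and 0 in Loaded outside spots. The most abundant of the brown adipocyte genes were *Cox8b*, a cytochrome oxidase subunit that muscle also makes (0.93 and 1.49), and *Dio2* (-1.998 and -0.12).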

How the data were processed

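Reads were turned by the authors into UMI counts with SpaceRanger 2.0.0, and the deposited values are raw UMI counts with no normalization. The build in the submitters' processing notes is mm10. Spots with at least 500 UMIs and 250 genes were kept, as in the study. Bone spots came from the study's barcode list. UMIs were summed over regions and divided by summed scran 1.30.0 size factors (R 4.3.3), computed over the kept spots of both sections. DESeq2, with which the study compared spots, was not used here, since each group has a single section. Intervals are exact Poisson, binomial or conditional binomial intervals at 95%, and a count of 0 was read as allowing up to 3. Python 3.11.15, numpy 2.4.6, scipy 1.17.1, pandas 2.3.3 and matplotlib 3.10.9 were used, and edgeR 4.0.16 gave TMM factors for an alternative. The computations were tested on simulated counts.

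The 8 genes, the lists and the rules were chosen with earlier results of these data known. All 8 genes are described. Genes like the trio are the 10 with the highest value of the lower of their 2 correlations, among genes with at least 50 UMIs in each section. From each other list, the counts called and the 2 genes with the most UMIs are given, and other genes named were chosen after their values were seen. The profiles along the shaft and by muscle share, the ranking for *Lpl*, the ratios without adipocyte spots and those in muscle spots alone were added after seeing the data. Other settings tried were scalings, filters, limits, thinning to 500 UMIs or none, and each block left out.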

Additional observations from a re-analysis of the deposited data

How the results depend on the processing

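No paired analysis was possible because each group has 1 section. The number of adipocyte genes called higher outside than in bone in the Control section was 5 and became 1 without the adipocyte spots. That setting, added after seeing the data, removes spots chosen by *Adipoq*, *Cfd*, *Plin1* and *Plin4*, nearly all outside, so fewer calls follow from its construction here and in the comparisons of outside spots below. Over the settings, the log2 ratio outside over bone in the Control section ranged from 0.28 to 1.48 for *Lpl* and from 0.21 to 1.21 for *Plin4*. Whether either gene passed the 2-fold limit thus depended on the setting. For the Loaded section the number called higher was 2 and became 5 under TMM, 4 with outside spots beside the bone region and 1 without the adipocyte spots. Beside the bone region 4.53% of all genes were called higher, and TMM moved the median of all genes by 0.44. Shares of all genes called are given for the main setting and beside the bone region only. Counts under other settings, here and in the next paragraph, stand without such a share. The number called lower in enclosed Control spots went from 0 to 1 with a 1.5-fold limit and to 1 with enclosed spots that touch no bone spot. For Loaded over Control in bone, the number lower went from 0 to 1 under TMM, without the 20 most abundant genes, without the skeletal muscle list and with no filter on spots, and the numbers higher in bone and in enclosed spots went from 2 to 1 at a minimum of 50 UMIs. For Loaded over Control outside, the number lower was 5 and became 2 with library totals, 3 without the 20 most abundant genes, 3 without the skeletal muscle list, 1 beside the bone region, 1 without the adipocyte spots and 2 in muscle spots. *Plin1* changed sign there, to 0.46 beside the bone region and 0.29 without the adipocyte spots. The median of all genes moved by 0.40 with library totals and by -0.09 under TMM in that comparison, by -0.59 and 0.37 for outside over bone in the Control section and by -0.21 and 0.44 in the Loaded section. Of ratios that were not called, *Plin4* and *Cfd* for enclosed over bone in the Loaded section and *Fabp4* for Loaded over Control in bone changed sign with a scaling. Other ratios that were not called changed sign under other settings, *Adipoq* (-0.57) and *Plin1* (-0.38) for outside over bone in the Loaded section without the adipocyte spots and *Pparg* for Loaded over Control outside (-0.38 to 0.82) among them.

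With 1 block left out, outside over bone in the Control section had 1 to 6 genes called higher and 0 to 2 lower, with *Adipoq* between -2.36 and 3.56 and *Cfd* between -1.19 and 4.48. In the Loaded section it had 1 to 4 higher, with *Cfd* between -0.0588 and 1.91. Enclosed over bone had 0 to 1 lower in either section. Loaded over Control had 0 to 3 higher and 0 to 1 lower in bone, 0 to 2 higher in enclosed and 0 to 4 higher and 0 to 6 lower in outside spots, with *Adipoq* between -2.63 and 3.29, *Cfd* between -2.71 and 3.61, *Plin1* between -2.23 and 3.98 and *Fabp4* between -1.65 and 1.02. *Lpl* lay between -0.75 and 0.66 for Loaded over Control in outside spots, lowest without the Loaded outside block at side 2 and end 2. The largest moves came without the Control outside block at side 1 and end 1.

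Adipocyte spots made up 3.05% (0.838 to 7.63) of Control bone spots when 2 of the 4 genes sufficed, beside 0 of 131 Loaded bone spots (0 to 2.78), with overlapping intervals. They made up 1.42% of Control and 0.948% of Loaded enclosed spots at that setting. With 2 of the 4 genes and no thinning, 8.40% of Control and 8.22% of Loaded bone spots qualified, and at 500 UMIs none did in either section. Of Control outside spots they made up 1.03% at 500 UMIs, 6.90% unthinned, 10.5% with 2 of the 4 genes and 0.539% with all 4. The same settings gave 0.187%, 3.36%, 3.95% and 0.0987% of Loaded outside spots. The log2 ratio of the trio beyond 1000 over within 300 μm of bone was 2.44 in the Control and -0.74 in the Loaded section, and 2.14 and -1.02 with library totals. The median r over the 28 pairs of adipocyte genes was 0.12 and 0.0433, and Spearman's rho was 0.114 and 0.0451. At a minimum of 200 UMIs, 4 of the 10 genes most like the trio were shared. The others, *Cyp2e1*, *Thrsp*, *Cidec*, *Cyp2f2*, *Hp* and *Ifi27l2a*, had 85 to 183 UMIs in the Loaded section, so that minimum itself left them out. Depth limits *Lep* and *Pparg* everywhere and *Adipoq*, *Plin1* and *Plin4* in bone and enclosed spots.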

Other observations

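Cell types that neighbour fat were read from the other lists, with log2 ratios of outside over bone given for the Control and then the Loaded section for the 2 most abundant genes of each. Beside the counts here and in the next paragraph, 7.11% of all genes were called higher and 5.71% lower in the Control section. In the Loaded section these shares were 5.31% and 6.09%. None of 11 endothelial genes was called in either section (*Aqp1* 0.49 and 0.13, *Egfl7* -0.33 and -0.19). Of 6 marrow reticular genes, the stroma from which marrow adipocytes arise, none was called in the Control section and 2 were called lower in the Loaded section (*Cxcl12* -0.60 and -0.17, *Foxc1* 0.07 and -0.66). Of 20 skeletal muscle genes 18 and 19 were called higher (*Myh4* 1.83 and 1.503, *Ckm* 2.01 and 1.70).

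Granulocyte genes were called lower outside for 0 of 10 in the Control and 6 of 10 in the Loaded section (*Camp* -0.10 and -1.03, *S100a8* -0.58 and -1.33), and none of 7 erythroid genes was called (*Hbb-bs* -0.71 and -0.47, *Hba-a2* -0.59 and -0.43). Macrophage genes were called lower for 4 of 8 and higher for 1 in the Control section and for none in the Loaded section (*C1qa* -0.58 and -0.06, *C1qc* -1.07 and -0.42). Osteoblast and osteocyte genes were called lower for 3 and 7 of 7 (*Col1a1* -1.64 and -2.41, *Bglap* 0.19 and -3.11). All 5 Schwann cell genes were called lower in the Control section (*Pmp22* -1.32 and 0.11, *Mbp* -1.61 and -0.19), where 1 of 5 was called higher in the Loaded section. Tendon and fibrous tissue genes were called lower for 3 of 5 and 0 of 5 (*Thbs4* -0.98 and 0.72, *Comp* -0.67 and -0.32).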
